A study of Mus musculus with 8 samples.

Results

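Immediate-early response genes are the genes that cells switch on within minutes of a signal, before any new protein is made. The 37 examined here were fixed as a list of symbols and found in the gene table by those symbols; all 37 were present among 55487 genes. They form the AP-1 family (10 genes), Egr (3), Ier (4), Nr4a (3), Klf (4), Dusp (5) and 8 others. The RNA came from cells of fetal mouse testes that were sorted by fluorescence and labelled as purified germ cells, from the strain C57BL/6. There were 4 libraries labelled KO, from Rhox10-null animals carrying Oct4-eGFP+/+, and 4 labelled WT, from their Oct4-eGFP+/+ littermates. Both groups therefore carried the reporter, in which regulatory sequence of Oct4 (Pou5f1) drives green fluorescent protein in germ cells. The fetal age is not given in the sources used here, nor whether animals were pooled or each library came from a separate animal, so p-values measure the spread between these samples, which may be technical.

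The products of these genes pass a signal on. AP-1 (FOS and JUN dimers), EGR, NR4A and KLF proteins are transcription factors that turn on a later set of genes, while DUSP phosphatases, ZFP36 proteins and SOCS3 shut the response off again. Growth factors acting through the kinases ERK1 and ERK2, cyclic AMP acting through CREB, and stress all induce them. Dissociating a tissue and sorting its cells induces them as well, so a level in sorted cells holds what was there before and what handling added; their parts were not tested.

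The libraries held 16346977 to 20311338 counts, with a biological coefficient of variation of 3.86% within groups, which makes differences of a few percent visible in abundant genes. Rhox10 itself had 17 to 25 counts per WT library and 10 to 22 per KO library, so directions here are between labels. The libraries labelled WT and KO held RNA of many cell types. Summed over 10 germ-cell markers (Ddx4 and Mov10l1 the most abundant), the level was 178 to 194 CPM (counts scaled to library size and composition) under the WT label and 169.6 to 184 under the KO label. That of 8 stromal markers, led by the collagens Col1a1 and Col3a1, was 8000 to 8105 and 7768 to 7988. That of 6 Leydig cell markers, led by Cyp17a1 and Cyp11a1 of steroid synthesis, was 2866 to 2904 and 2610.0 to 2654. Per kilobase of gene model, the germ-cell markers had a median of 5.11 CPM with the WT label, the stromal ones 43.7 and the Leydig ones 124. The markers thus go against a pure germ-cell sample, and which cells held the RNA of a given immediate-early gene cannot be read from these values.

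**Figure D1:**
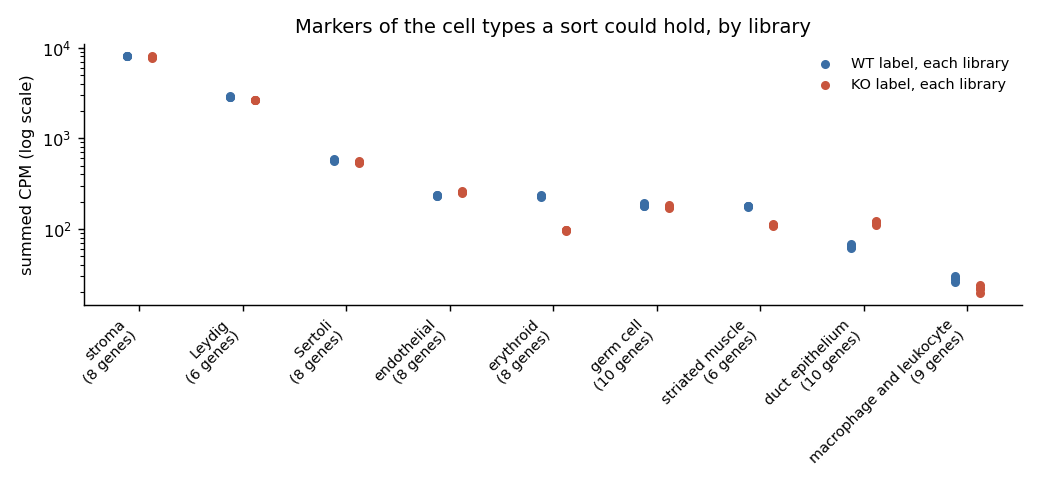
Summed CPM (log axis) of each marker list in each library, blue for the WT label and red for the KO label, with the number of genes in each list. Stromal markers reached 8105 CPM and germ-cell markers at most 194; duct epithelial markers were higher and erythroid markers lower in all 4 libraries labelled KO.

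Immediate-early genes were abundant and spread over a wide range of levels. Per kilobase of gene model, Jun led at 184 CPM, higher than 99.2% of the genes tested, followed by Fos at 75.3, Egr1 at 66.6, Zfp36l1 at 57.6 and Fosb at 48.9. Jund, Ier2 and Junb, at 35.3, 29.0 and 26.04, completed the 8 members above the 90th percentile. At the other end, Arc, Egr3, Nr4a3, Dusp2 and Fosl1 lay below the 25th percentile, at 1.02, 0.892, 0.627, 0.552 and 0.0983 CPM per kilobase. Partners within a family were therefore present at very different levels, as with Jun and Fosl1 in AP-1 or Egr1 and Egr3. On GRCm38 the genes given below in every library lie, from first to last annotated exon, as follows: Fos (ENSMUSG00000021250) at chr12:85473890-85477273, Fosb (ENSMUSG00000003545) at chr7:19302696-19310051, Jun (ENSMUSG00000052684) at chr4:95049034-95052222, Jund (ENSMUSG00000071076) at chr8:70698949-70700616, Ier2 (ENSMUSG00000053560) at chr8:84661331-84662854, Ier5 (ENSMUSG00000056708) at chr1:155096361-155099636, Klf6 (ENSMUSG00000000078) at chr13:5861482-5870394, Plk2 (ENSMUSG00000021701) at chr13:110395046-110400844, Zfp36l1 (ENSMUSG00000021127) at chr12:80107754-80113013, Nr4a1 (ENSMUSG00000023034) at chr15:101254269-101274795, Dusp1 (ENSMUSG00000024190) at chr17:26505590-26562128; Egr1 is ENSMUSG00000038418.

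**Figure D2:**
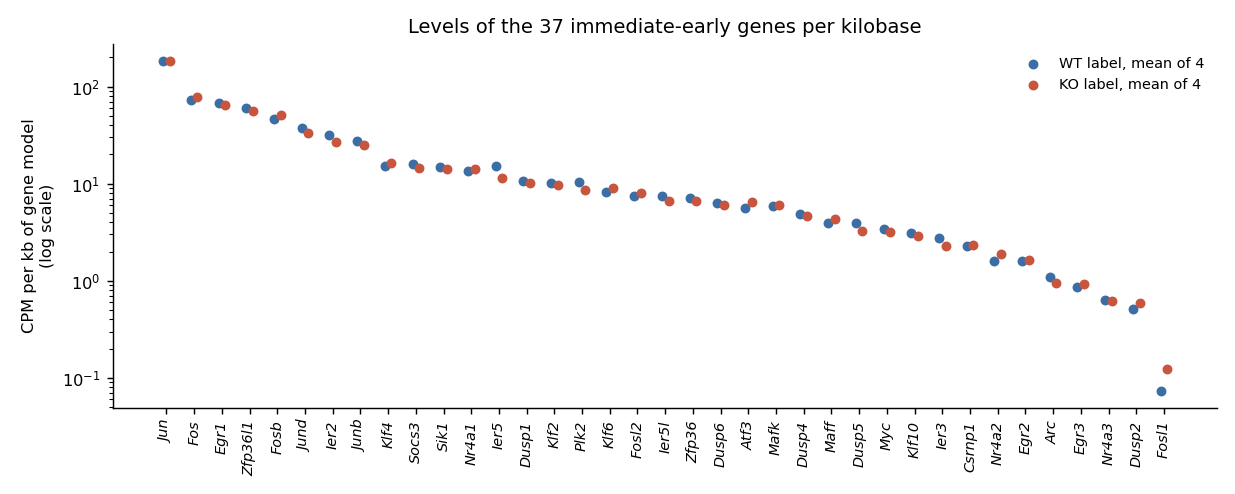
Mean level of each of the 37 genes in CPM per kilobase of gene model (log axis), blue for the 4 libraries labelled WT and red for the 4 labelled KO. The order runs from Jun at 184 to Fosl1 at 0.0983 over all libraries.

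The comparison asked whether the label moved these genes, and the answer differed by member. Of 36 with enough reads to be tested, 3 rose with the KO label (Fos, Fosb and Klf6), 6 fell (Jund, Egr1, Ier2, Ier5, Zfp36l1 and Plk2) and 27 did not pass an adjusted p under 0.05. This is 9 of 36 members called, where 5.14% of all 23190 genes tested were called; split by direction, 16.7% of members were lower and 8.33% higher, against 2.80% and 2.35% of all genes. Over all genes 649 were lower and 544 higher, a split that moved to 555 and 633 with upper-quartile scaling and to 836 and 426 with library totals. Ier5 and Plk2 were called lower and fell by at least 1.2-fold, as did 1.03% of all genes under both conditions. Ier3 fell by 1.21-fold but was not called. Abundant genes pass more easily: all 9 lay among the 18 members whose average log2 CPM was 4.56 or more, and of all 6692 genes that abundant 6.50% were lower and 3.87% higher. All 9 changes were small, from 1.06-fold to 1.33-fold. The log2 fold change had a median of -0.07 over the members and 0.002 over all genes, and was below 0 for 22 of the 36 members (61.1%, against 49.3% of all genes). In samples of many cell types, fewer cells of a type and less RNA per cell cannot be told apart.

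The summed level of the 36 genes overlapped between the labels, at 2311 to 2396 CPM with WT and 2312 to 2350.2 with KO. The families within that sum parted ways. The AP-1 sum was 1263 to 1299 CPM in WT and 1300 to 1324 in KO libraries, so the groups just failed to overlap, with KO above. The Ier sum lay the other way, at 118 to 127 and 95.6 to 101, and so did the Egr sum at 303 to 325 and 299.6 to 301, of which Egr1 made up nearly all; Egr2 and Egr3 had log2 fold changes of 0.06 and 0.10. The sum of the 8 other members was 382 to 399.7 and 358 to 366. These sums are led by the most abundant genes of a family: with each gene weighted equally, on the log2 scale, the AP-1 and Egr levels overlapped between the labels and the Ier level did not. The Nr4a, Klf and Dusp sums overlapped.

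**Figure D3:**
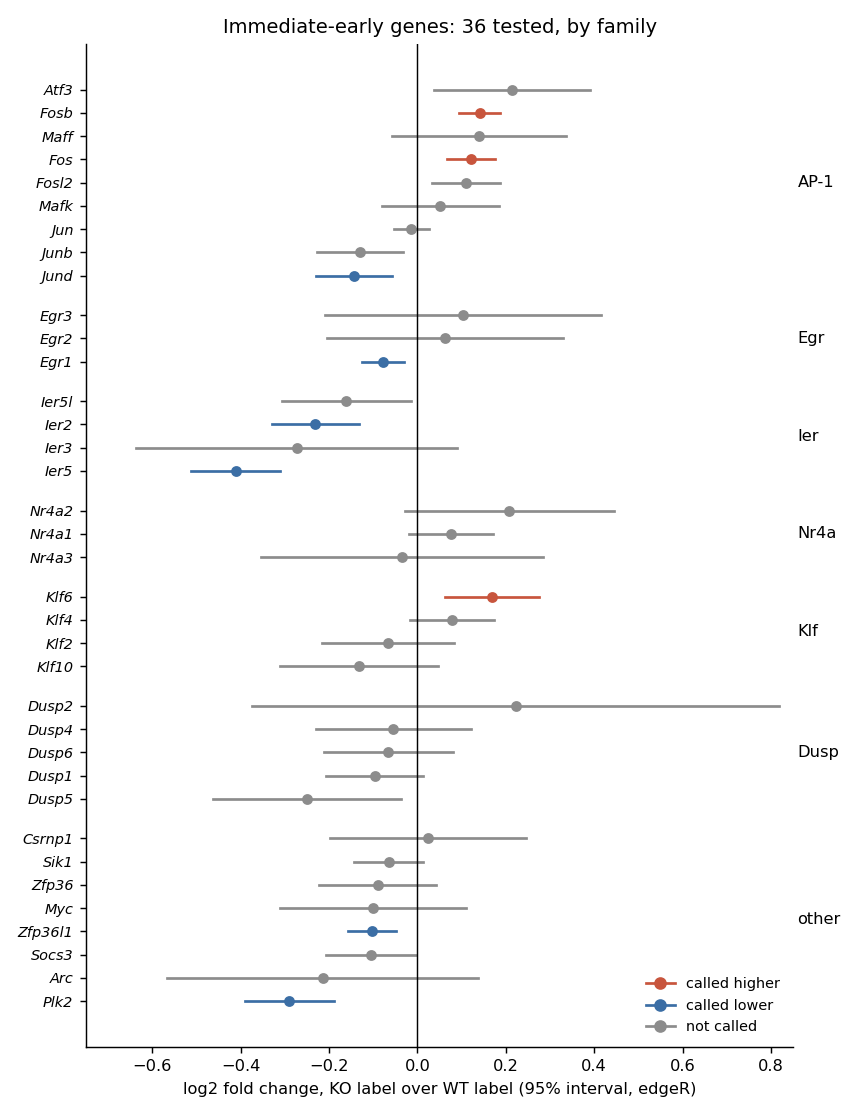
Log2 fold change of each tested gene, KO label over WT label, with its 95% interval from edgeR, grouped by family; red marks genes called higher, blue lower, grey not called. Fos and Fosb lie right of 0 with narrow intervals, Jund and Egr1 left of it, and all 4 Ier genes left, 2 of them called.

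In AP-1, the FOS proteins cannot bind DNA alone and pair with JUN proteins. Fosb, which encodes such a partner, was at 284, 298, 292 and 286 CPM in WT replicates 1 to 4 and at 324, 316, 318 and 323 in KO replicates 1 to 4. Every library labelled KO was above every library labelled WT, as was true of 4.72% of all genes tested. Its log2 fold change was 0.14 (standard error 0.024, adjusted p = 1.04e-06). Fos was at 168.5, 170.4, 167.2 and 172.6 CPM under the WT label, against 182.1, 184.7, 184.5 and 186.8 under the KO label. Its groups did not overlap either, and it rose by 0.12 (standard error 0.028, adjusted p = 0.000897). Fosl2, the third Fos gene with enough reads, had 69.3 to 72.8 CPM and 74.2 to 81.9, apart between the groups, but a log2 fold change of 0.11 did not pass (adjusted p = 0.0877). Fosl1 had 29 reads in the 8 libraries together, 0 to 6 in WT and 2 to 7 in KO libraries, and was not tested.

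Of the Jun genes none rose and 1 fell. Jun, the most abundant member, was at 607, 588, 587 and 580.2 CPM in WT replicates 1 to 4 and at 584, 578, 594 and 584 in KO replicates 1 to 4. Its groups overlapped, and the 95% interval of its log2 fold change was -0.05 to 0.03 (adjusted p = 0.832). Jund, whose product is usually present in resting cells and restrains growth, was at 65.1, 61.7, 61.2 and 59.2 CPM and at 53.4, 56.5, 58.02 and 55.5. All libraries labelled KO were below those labelled WT, and it fell by 0.14 (standard error 0.044, adjusted p = 0.0296). That call was lost with DESeq2 (adjusted p = 0.0613), limma voom (0.0653), a GC and length offset (0.166), the marker covariate described below (0.137), and on leaving out WT replicate 1 (0.156) or 2 (0.0565), or on leaving out KO replicate 1 (0.118), 2 (0.0518) or 4 (0.0752). Junb, a JUN protein that can dampen JUN activity, had 45.53 to 54.65 CPM and 43.8 to 46.8 (log2 fold change -0.13, adjusted p = 0.116), but was called without WT replicate 3 (-0.17, adjusted p = 0.0456).

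The remaining AP-1 genes were not called. Atf3, a stress-induced factor that can pair with JUN, had 11.07 to 12.7 CPM in WT and 12.1 to 15.7 in KO libraries (log2 fold change 0.21, adjusted p = 0.180). The small MAF genes, whose products lack an activation domain, were at 10.2 ± 1.71 and 11.2 ± 0.746 CPM for Maff and 22.9 ± 1.18 and 23.7 ± 0.819 for Mafk (SD, n = 4; adjusted p of 0.557 and 0.801 in edgeR).

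**Figure D4:**
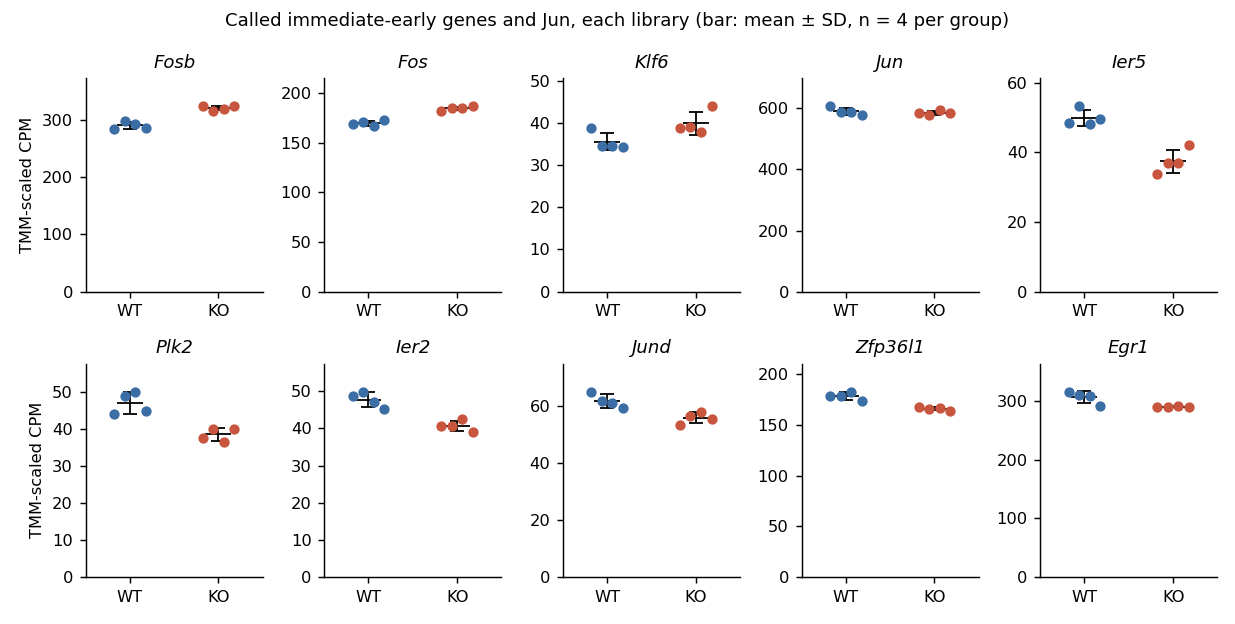
CPM of the 9 called genes and Jun in each library, from 0, blue for the WT label and red for the KO label, with mean ± SD (n = 4 per group). Fosb and Fos sit higher and Ier5, Plk2, Ier2, Jund, Zfp36l1 and Egr1 lower in all 4 libraries labelled KO, Klf6 overlaps, and Jun lies at 578 to 607 throughout.

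Egr1, a zinc finger factor induced together with Fos in most cells, did not rise with it. It was at 316.5, 309.8, 308.9 and 292.6 CPM in WT replicates 1 to 4 and at 290.5, 290.0, 292.1 and 290.3 in KO replicates 1 to 4. The groups met closely, since WT replicate 4 was just above the highest library labelled KO. It fell by 0.08 (standard error 0.024, adjusted p = 0.0276), the smallest of the 9 changes. The call was lost under 12 of 20 alternatives, including DESeq2 (adjusted p = 0.0501), no filter on low counts (0.111), the GC and length offset (0.0846), and without each of WT replicates 1 to 3 (0.162, 0.0788 and 0.0769) and KO replicates 2 to 4 (0.0688, 0.0568 and 0.0628). Its relatives Egr2, a factor of myelination and hindbrain patterning, and Egr3 were scarce, at 5.37 ± 0.728 and 5.62 ± 0.679 CPM and at 3.79 ± 0.429 and 4.07 ± 0.290 (SD, n = 4; adjusted p of 0.894 and 0.839 in edgeR).

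The Ier genes, a loosely named group of immediate-early response genes, held the steepest fall. Ier5, whose product helps activate the heat shock factor HSF1, was at 48.5, 53.2, 48.2 and 49.5 CPM in WT replicates 1 to 4 and at 33.8, 36.93, 36.96 and 41.97 in KO replicates 1 to 4. No library labelled KO reached the lowest labelled WT; its fall of 0.41 (standard error 0.051, adjusted p = 1.11e-11) is 1.33-fold, and it was called under all 20 alternatives. Ier2, which encodes a nuclear protein, was at 48.7, 49.9, 47.0 and 45.3 and at 40.7, 40.6, 42.4 and 39.05 CPM. Its groups were also apart, and it fell by 0.23 (standard error 0.050, adjusted p = 0.000391). Ier3, a survival and stress gene, had 2.72 to 3.57 and 2.36 to 2.73 CPM (log2 fold change -0.27, adjusted p = 0.518), and Ier5l 17.6 to 21.1 and 17.6 to 18.5 (-0.16, adjusted p = 0.254).

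The orphan nuclear receptors of the Nr4a family are induced by luteinizing hormone in Leydig cells, where Nr4a1 activates steroid genes. None was called. Nr4a1, the most abundant, was at 46.0, 48.5, 45.8 and 47.0 CPM in WT replicates 1 to 4 and at 46.2, 48.7, 53.7 and 48.5 in KO replicates 1 to 4, with overlapping groups (log2 fold change 0.08, 95% interval -0.02 to 0.17, adjusted p = 0.485). Nr4a2 had means of 6.51 ± 0.802 and 7.57 ± 0.882 CPM and Nr4a3 of 3.79 ± 0.558 and 3.71 ± 0.440 (SD, n = 4; adjusted p of 0.415 and 0.952 in edgeR).

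Of the Klf zinc finger factors, Klf6, a broadly expressed injury-response gene, was called. It was at 38.8, 34.6, 34.6 and 34.4 CPM in WT replicates 1 to 4 and at 38.8, 39.02, 37.8 and 44.0 in KO replicates 1 to 4. WT replicate 1 stood among the libraries labelled KO, so the groups overlapped; the rise of 0.17 (standard error 0.054, adjusted p = 0.0438) was close to the threshold. It was lost with DESeq2 (adjusted p = 0.136), limma voom (0.110), unadjusted library totals (0.0894), low counts kept (0.0653), no robust dispersion (0.0591), on leaving out WT replicate 2, 3 or 4 (0.137, 0.137 and 0.135) and on leaving out KO replicate 2 or 4 (0.0606 and 0.365). Klf4, a pluripotency factor that Sertoli cells also express, had 43.3 to 50.4 and 45.4 to 51.4 CPM (log2 fold change 0.08, adjusted p = 0.462). Klf2, known from endothelium, had 18.7 ± 0.969 and 17.8 ± 1.14 CPM and Klf10, a TGF-beta-induced gene, 13.1 ± 1.70 and 12.02 ± 0.270 (SD, n = 4; adjusted p of 0.766 and 0.529 in edgeR).

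The Dusp genes encode phosphatases that switch MAP kinases off, and none of 5 was called. Dusp1, which acts in the nucleus and is the most abundant, was at 34.6, 36.3, 36.8 and 34.7 CPM in WT replicates 1 to 4 and at 30.5, 33.5, 34.5 and 34.5 in KO replicates 1 to 4. Its groups were narrowly apart, with KO below, as was true of 4.72% of all genes tested, and its log2 fold change of -0.10 did not pass (95% interval -0.21 to 0.01, adjusted p = 0.412). Dusp6, the cytoplasmic phosphatase of ERK and a standard readout of its activity, was at 16.9 to 21.7 and 17.5 to 20.3 CPM (log2 fold change -0.07, interval -0.21 to 0.08). Dusp5, a nuclear ERK phosphatase, had 8.43 to 10.8 and 7.14 to 8.87 CPM (-0.25, adjusted p = 0.198). Dusp4 and Dusp2, also nuclear, had means of 13.3 and 12.7 CPM and of 1.02 and 1.19 CPM (adjusted p of 0.854 and 0.815).

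Of the 8 other members 2 fell. Plk2, a polo-like kinase of centriole duplication, was at 44.12, 48.96, 50.16 and 44.997 CPM in WT replicates 1 to 4 and at 37.7, 40.0, 36.5 and 40.0 in KO replicates 1 to 4. Its groups did not overlap, and it fell by 0.29 (standard error 0.051, adjusted p = 4.59e-06), 1.22-fold. Zfp36l1, which encodes a protein that binds AU-rich messenger RNAs and speeds their decay, was at 178.5, 178.8, 182.8 and 173.2 CPM in WT replicates 1 to 4 and at 168.02, 166.01, 166.7 and 163.8 in KO replicates 1 to 4. It fell by 0.10 (standard error 0.028, adjusted p = 0.00969), with the groups apart; leaving out WT replicate 3 ended the call (adjusted p = 0.0634), as did the GC and length offset (0.0599).

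Its relative Zfp36 (tristetraprolin) was at 24.4 ± 1.71 and 22.9 ± 1.00 CPM (adjusted p = 0.575), and Socs3, the feedback inhibitor of JAK-STAT signalling, at 45.6 ± 4.03 and 42.3 ± 2.86 (adjusted p = 0.291; SD, n = 4 in edgeR's comparison). Sik1, a cyclic AMP-induced kinase that restrains CREB coactivators, had 71.2 to 80.8 and 71.7 to 73.5 CPM (log2 fold change -0.07, adjusted p = 0.445). Myc, the growth regulator, had 8.57 to 11.05 and 8.35 to 9.05 CPM. Csrnp1, a nuclear protein gene, had 7.46 to 8.91 and 6.97 to 9.24 CPM. Arc, known from synapses, had 2.37 to 4.05 and 2.41 to 3.41 CPM. Their adjusted p-values were 0.740, 0.955 and 0.637.

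Ratios of counts within a library do not depend on how libraries were scaled. Fos reads per Jun read numbered 0.277 to 0.298 in WT and 0.311 to 0.320 in KO libraries. Fosb reads per Jun read numbered 0.468 to 0.507 and 0.535 to 0.554. Jund moved the other way, at 0.102 to 0.107 and 0.0915 to 0.0978 per Jun read. Egr1 reads per Fos read were 1.69 to 1.88 and 1.55 to 1.59, and Ier2 reads per Fos read 0.262 to 0.293 and 0.209 to 0.230. Ier5 reads per Fosb read were 0.165 to 0.179 and 0.104 to 0.130. None of these 6 ratios overlapped between the labels; 13 were computed, and Klf6 to Jun was the 1 that did, at 0.0589 to 0.0638 and 0.0636 to 0.0753. Each ratio has a called gene as its numerator. Those per Fos or Fosb read also divide a gene called lower by a gene called higher. The ratios therefore restate those calls free of scaling and add no independent support.

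The promoter sequences of 5 of these genes, those with the clearest rises and the clearest falls among the members matched, show how unlike their starts are. RefSeq promoters (GRCm38.p6) were matched by symbol for 28 of the 37 genes. Egr1 and Ier2, both called lower, were among those not matched. For Jund the matched window ended at chr8:70697738, upstream of the gene model counted here, which starts at chr8:70698949. It was not printed but counts among the 28, with no match to the motifs below. Each line gives the 250 bases before the start, 5′ to 3′ on the gene's strand, and capitals mark any match, on either strand, to the motifs searched. These were the CRE (TGACGTCA), its core (TGACG, which each CRE also holds) and an AP-1-like site (TGANTCA, where N is any base). The CArG box of serum response factor, the TATA box (TATAAA) and an Ets core (CCGGAA) were searched as well.
Fos, chr12:85473640-85473889, plus strand, higher: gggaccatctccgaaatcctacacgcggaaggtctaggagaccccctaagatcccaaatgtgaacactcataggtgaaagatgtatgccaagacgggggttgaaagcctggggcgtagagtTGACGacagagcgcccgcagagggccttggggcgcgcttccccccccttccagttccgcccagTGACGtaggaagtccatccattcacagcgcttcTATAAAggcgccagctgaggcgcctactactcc
Fosb, chr7:19310046-19310295, minus strand, higher: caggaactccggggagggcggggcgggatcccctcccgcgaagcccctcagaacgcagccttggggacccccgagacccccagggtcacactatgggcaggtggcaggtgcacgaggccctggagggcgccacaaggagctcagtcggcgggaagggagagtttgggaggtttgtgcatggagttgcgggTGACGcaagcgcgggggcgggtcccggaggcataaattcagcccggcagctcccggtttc
Ier5, chr1:155099637-155099886, minus strand, lower: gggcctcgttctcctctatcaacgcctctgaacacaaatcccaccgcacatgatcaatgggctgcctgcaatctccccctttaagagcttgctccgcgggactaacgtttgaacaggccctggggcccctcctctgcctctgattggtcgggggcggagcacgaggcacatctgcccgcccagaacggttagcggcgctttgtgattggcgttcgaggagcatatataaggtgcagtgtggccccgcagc
Plk2, chr13:110394794-110395043, plus strand, lower: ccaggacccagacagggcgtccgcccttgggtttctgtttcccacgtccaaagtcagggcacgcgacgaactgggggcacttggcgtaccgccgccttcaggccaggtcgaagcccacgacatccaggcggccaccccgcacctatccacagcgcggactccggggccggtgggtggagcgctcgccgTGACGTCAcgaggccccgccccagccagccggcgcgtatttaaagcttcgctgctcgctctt
Zfp36l1, chr12:80113014-80113263, minus strand, lower: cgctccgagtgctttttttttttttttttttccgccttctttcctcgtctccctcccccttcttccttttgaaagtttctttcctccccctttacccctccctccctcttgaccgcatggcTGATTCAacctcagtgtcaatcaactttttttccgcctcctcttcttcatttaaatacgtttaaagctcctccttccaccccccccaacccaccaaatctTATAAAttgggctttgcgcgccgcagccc
The CRE core is bound by the factor CREB, through which cyclic AMP and calcium act. It began 66 and 129 bases before the start of Fos and 60 before that of Fosb, while Plk2 held a whole CRE 62 bases before its start. The core thus stood in promoters of genes that rose and of a gene that fell. It was absent from the windows of Klf6, which rose, and of Ier5, Jund and Zfp36l1, which fell. Over the members, 16 of 28 (57.1%) held the core within 250 bases, against 22.6% of 17491 protein-coding genes with a promoter of that length. Here and below, a gene with several RefSeq starts counted if any of them held the match. The whole CRE stood in 3 of 28 (10.7%, against 2.20%) and the CArG box in 3 (10.7%, against 1.60%). The AP-1-like site, with any base at its centre, stood in 2 (7.14%, against 7.19%). The TATA box stood in 3 (10.7%, against 13.7%) and the Ets core in 4 (14.3%, against 16.9%). These matches describe letters in a window, not binding, and sites farther upstream were not searched.

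In gene structure, 6 of the 37 genes had no intron in any protein-coding transcript (16.2%, against 3.27% of 15299 protein-coding genes tested): Jun, Junb, Jund, Ier2, Ier5 and Ier5l. Of these 3 fell, none rose, and Jun, Junb and Ier5l were not called. Among all 500 intronless protein-coding genes tested, 9.40% were lower and 1.2% higher with the KO label. The exon sequence of the members had a median GC content of 55.9%, against 50.9% for the protein-coding genes tested. The part of intronless structure in these falls was not tested; when GC content and gene length entered as an offset, Ier2 (log2 fold change -0.20, adjusted p = 0.00359), Ier5 (-0.40, 1.13e-10) and Plk2 (-0.29) were called lower and Fos, Fosb and Klf6 higher. Jund shares 52.6% of its exon bases with Gm11175 on the other strand, which had 0 reads. None of the other called genes shared exon bases with another gene that was counted. Fosl1, which was not tested, shares 57.2% with Ccdc85b on the other strand, at 1367 reads against 29 for Fosl1. How reads over shared bases were counted is not given in the sources used here, so the levels of Jund and Fosl1 may be affected.

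Genes around the immediate-early response were read from lists. The kinases, coactivators and factors upstream, 30 genes, had 1 that fell, none that rose and 29 that were not called, with a median log2 fold change of 0.03; over all genes 2.80% were lower and 2.35% higher. The faller was Mapk3, which encodes ERK1, at 36.5 ± 1.14 CPM in WT and 30.2 ± 2.30 in KO libraries (SD, n = 4), a log2 fold change of -0.28 (adjusted p = 0.000137). Of 11 tested genes of ERK feedback none was called in edgeR, 1 (Etv5) had an unadjusted p under 0.05, and DESeq2 and limma voom also called 0; Spred1, the most abundant, was at 109.5 ± 2.05 and 108 ± 5.75 CPM, and Spred2 at 28.1 ± 1.56 and 29.7 ± 1.44. Of 27 paralogs of the members outside the list, 1 fell, Sik3 (-0.11, adjusted p = 0.0428), and none rose.

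A list of 29 other tested genes known to respond to tissue dissociation had 11 lower (37.9%, against 2.80% of all genes) and 2 higher (6.90%, against 2.35%). Its median log2 fold change was -0.14. The heat shock genes Hspa1b and Hspa1a, near-identical copies that may share reads, fell by 0.27 and 0.25, and the stress gene Gadd45b fell by 0.65. Btg1, an antiproliferative gene, Ccn1, a matrix protein gene and target of serum response factor, Gadd45g, Hsp90aa1, Gem, Rhob and Nfkbia also fell. Sat1, of polyamine breakdown, rose by 0.32 (adjusted p = 0.00487), and the scarce chemokine gene Cxcl1 by 1.33 (adjusted p = 0.0199). Whether this list differed from the members was not tested.

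**Figure D5:**
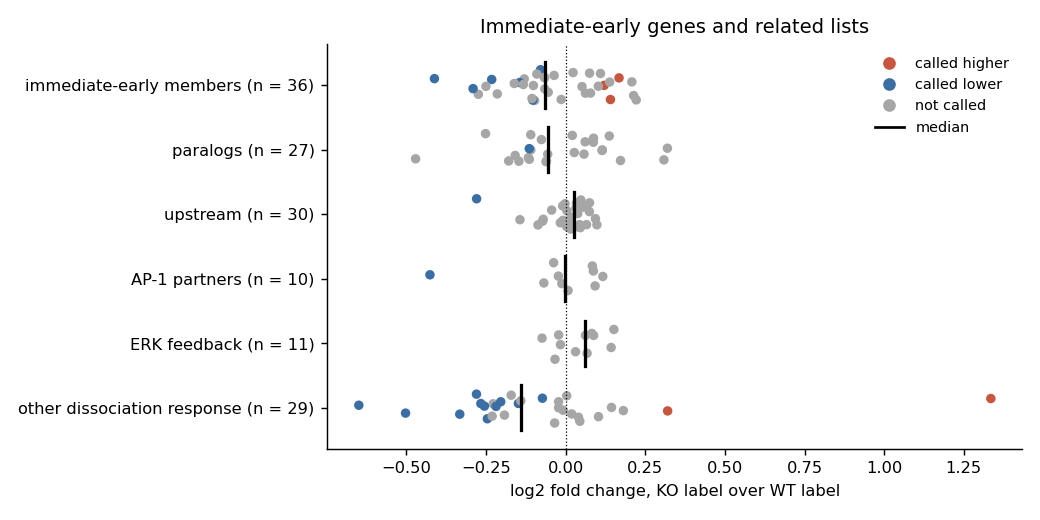
Log2 fold change, KO label over WT label, of each tested gene in the immediate-early list and 5 related lists (n beside each name); red marks genes called higher, blue lower, grey not called, and black bars are medians. The upstream and ERK feedback lists lie near 0, while the other dissociation genes have a median of -0.14 and 11 called lower.

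Markers of other cells moved with the same labels as the genes above. All 10 duct epithelial markers, Emx2 and Krt8 the most abundant, were higher, with a summed level of 61.4 to 67.7 CPM in WT and 109.9 to 123.5 in KO libraries. Erythroid markers fell from 225 to 239 down to 94.0 to 98.7, with the 4 haemoglobin genes and Ermap called of 8. Leydig markers were lower for Cyp11a1, Cyp17a1, Hsd3b1 and Star of 6 and Sertoli markers for Aard, Ptgds and Inha of 8 (537.7 to 557 against 569 to 595 CPM); endothelial markers were higher for Pecam1, Kdr and Flt1 of 8 (250.3 to 260.2 against 229 to 239). Of 10 germ-cell markers, Dazl and Dppa3 were higher and Tdrd1 and Mov10l1 lower. None of 8 stromal markers was called. Macrophage markers were scarce, at 26.2 to 30.2 and 19.8 to 24.4 CPM with 4 of 9 tested and Lyz2 lower. Of 6 striated muscle markers, Ttn and Nrap were lower, while 4 had log2 fold changes above 0 and were not called. The summed level of the 6 was 175.6 to 181 CPM in WT and 109 to 114 in KO libraries. Ttn led that fall, with means of 124.6 and 57.5 CPM. No marker had 0 counts in all libraries. The mean log2 level of the tested non-germ-cell markers was also entered in edgeR as a covariate. Fosb (0.18, adjusted p = 0.000938) and Ier5 (-0.43, 0.000265) were then called. The other 7 were not, Fos (0.10, 0.359) and Plk2 (-0.17, 0.496) among them. That mean pools markers that rose with markers that fell, so it follows no single cell type. Neither the kept nor the lost calls speak to cell composition, whose part was not tested.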

How the data were processed

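The deposited table holds raw counts of reads per gene, not normalized by the authors, with 1 column per library and a gene model length. Per the submitters' processing notes, STAR 2.5.2b, Subread, featureCounts and DESeq2 were used with GRCm38; roles and settings, strand included, are not given in the sources used here. Libraries were made from 1 ng of total RNA with a stranded pico-input kit, per the labels' protocols. Gene length, a value of another kind, is per the file headers.

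Symbols came from GENCODE M21 (55141 of 55487 IDs matched). Counts were tested in R 4.3.3 with edgeR 4.0.16 (filterByExpr, TMM, robust quasi-likelihood test, two-sided, Benjamini-Hochberg over 23190 genes, called at 0.05); alternatives used DESeq2 1.42.0 and limma 3.58.1. The test was checked on simulated data. Reads carry no molecular identifiers here, so precision rests on the spread between libraries. The members and lists were chosen with earlier results of these data known. Named were all 37 members, in every library those called and the most abundant of a family without a call; from related lists up to 4 called genes with the smallest p or the 2 most abundant; from marker lists the 2 most abundant and those called, which the text gives partly as counts. Alternatives were other scalings, filters and tests, a replicate block, a marker covariate, protein-coding genes alone and each library left out; the GC and length offset was added after seeing the data. Some results on genes of the related lists are not reported here.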

Additional observations from a re-analysis of the deposited data

Results flagged for a closer look

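In 4 of 72 groups of 4 libraries (36 genes in each label) 1 library lay far from the other 3, by a gap, as a share of the group's range, above Dixon's 95% limit; about 1 in 20 groups, or 3.60, would by chance. Klf6 was at 38.8 CPM in WT replicate 1 and 34.4 to 34.6 in the other 3. Ier5l was at 17.6 CPM in WT replicate 1 and 20.6 to 21.1 in the others. Myc was at 11.05 CPM in WT replicate 4 and 8.57 to 8.89 in the others. Egr2 was at 6.63 CPM in KO replicate 2 and 5.23 to 5.36 in the others.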

How the results depend on the processing

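The 9 calls kept their direction under all 20 alternatives. Fosb and Ier5 were called under each, and Ier2, Plk2 and Fos under all but the marker covariate. The number of members lower was 4 to 6 and higher 2 to 3 when 1 library was left out. With the marker covariate 1 was lower and 1 higher, and 303 genes were called in all; with the GC and length offset 3 were lower. DESeq2 called 794 of all genes against 1193. Of the paralogs none (0) was called with upper-quartile scaling, no filter, DESeq2, limma voom, no robust dispersion or the covariate, 2 with library totals, and 0 to 2 with 1 library left out. Of the upstream genes 2 were called with upper-quartile scaling, library totals, the replicate block or protein-coding genes alone, 0 with the covariate and 1 to 3 with 1 library left out. With the covariate 0 AP-1 partners and 8 other dissociation genes were called. Members that were not called turned in sign: Jun to 0.0061 with the GC and length offset; Maff to -0.13, Egr2 to -0.0091, Nr4a1 to -0.026, Nr4a3 to 0.33, Klf10 to 0.010 and Csrnp1 to -0.21 with the covariate; with 1 library left out, Egr2 ran from -0.024 (without KO replicate 2) to 0.149, Nr4a3 from -0.111 to 0.045 (above 0 without WT or KO replicate 3) and Csrnp1 from -0.051 to 0.084 (below 0 without either WT replicate 1 or 2, and without KO replicate 3). The causes were not tested. Deviations of same-numbered libraries from their group means had correlations of -0.002 to 0.048, and not every library correlated best with its own number, so the numbers were not taken as pairs; the replicate block gave 6 members lower, 3 higher and 1249 genes called in all. Depth limits the scarce members: the 95% interval of Dusp2 ran from -0.37 to 0.82.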

Other observations

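Spread between libraries of a group was compared with that of genes of like level. The within-group SD of log2 CPM was above the median of genes of like abundance (within 0.5 on the log2 scale) for 15 of 36 members. Fos had an SD of 0.0177 against a median of 0.0373 for genes of its level, and Jun 0.0230 against 0.0261. Socs3 (0.113 against 0.0689) and Ier5 (0.102 against 0.0694) were among those above. These are descriptions, with no test.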
